A study of Mus musculus with 24 samples.

Results

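Docetaxel and PF-06873600 were compared with each other in Myc-CaP cells, an established mouse prostate tumour line, using 6 of the 24 bulk RNA-seq libraries of a series of 8 treatment groups. The docetaxel group (3 libraries) received 3.75 µM docetaxel and the PF-06873600 group (3 libraries) received PF-06873600 at 500 nM, a compound that blocks the kinases CDK2, CDK4 and CDK6. A solvent group (3 DMSO libraries) gave the baseline of each drug. Exposure lasted 6 days in every group, with fresh drug at intervals of 3 days, and all groups are labelled MYC overexpressing and batch 1. The question was which transcripts separate cells held under a microtubule poison from cells held under a CDK inhibitor. Each drug was given at 1 dose and sampled at 1 time, so drug and dose cannot be told apart. The material is 1 cell line, and nothing in the labels tells if a group's 3 libraries were grown as separate cultures. The p-values therefore rest on the spread among libraries alone, which may be technical.

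Docetaxel is a taxane. It binds beta-tubulin inside the microtubule, stabilises the polymer and blocks the dynamics that the mitotic spindle needs. Cells sense free tubulin dimers: when the pool is large, the factor TTC5 reads the opening residues of alpha- and beta-tubulin chains as they leave the ribosome and triggers decay of their mRNAs, and when the pool is small these mRNAs last longer. CDK4, CDK6 and CDK2 act one step earlier in the cycle: with D- and E-type cyclins they phosphorylate RB, which releases E2F factors to switch on genes of DNA synthesis.

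The 3 docetaxel libraries held 69757257, 25169045 and 24997975 counts and the 3 PF-06873600 libraries 25654432, 25495616 and 26375555, against 24648676 to 26438205 in the DMSO libraries. Docetaxel library 1 was thus the deepest, and it was also thinned to 25497778 counts as an alternative. Between 23221 and 28876 genes had at least 1 count in docetaxel libraries, 20306 to 21093 in PF-06873600 libraries and 18782 to 19292 in DMSO libraries. The library numbered 2 stood apart from its partners in each group, with low counts of the nuclear RNA Neat1. CPM below are counts scaled to library size with edgeR's TMM factors. The labels give prostate tumour cells, and 2 defining genes of luminal prostate epithelium were at or near 0 in all 3 groups. Epcam had 3 counts in the docetaxel libraries together and none in the other groups, and Krt18 had 28, 22 and 38 counts in docetaxel, PF-06873600 and DMSO libraries.

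Across 15527 tested genes, 3844 (24.8%) differed between the drugs at an adjusted p under 0.05 (edgeR's quasi-likelihood test with Benjamini-Hochberg adjustment), called here for short. Of these, 1835 were higher with docetaxel (11.8% of tested genes) and 2009 were lower (12.9%). Large changes went mostly one way: 985 called genes were at least 2-fold higher with docetaxel (6.34% of tested genes) and 81 at least 2-fold lower (0.522%). At 4-fold the numbers were 493 and 12. All 3 docetaxel libraries lay above all 3 PF-06873600 libraries for 20.5% of tested genes and below them for 22.8%. Against the shared DMSO libraries, 26.5% of genes were called higher and 22.5% lower with docetaxel, and 17.9% higher and 14.1% lower with PF-06873600. The share of calls that were higher, 47.7%, depended on the scaling: it was 73.4% when total counts alone were used, which moved the median log2 fold change of all genes from 0.0066 to 0.125, and 71.8% with limma on log2(TPM + 1). The libraries numbered 2 of both drugs deviated together (correlation 0.424), while libraries 1 and 3 correlated as strongly across numbers as within them. With the replicate number as a block 5228 genes were called in the fit of all groups (2512 higher, 2716 lower). In the fit of the 6 libraries 6301 were called (3296 higher, 3005 lower). Without docetaxel library 1 the count of calls was 2542, and without PF-06873600 library 2 it was 2504.

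The 2 directions fell at different expression levels. Among 3567 genes with a mean under 1 CPM over the 24 libraries, 22.1% were called higher with docetaxel and 0.729% lower, with a median log2 fold change of 0.65. Among the 2187 genes averaging 100 CPM or more, 3.61% were called higher and 29.6% lower, with a median of -0.13. Of the 985 genes at least 2-fold higher, 779 belonged to the under 1 CPM class, and only 27 reached 10 CPM in either drug group. The median gene of that set stood at 1.03 CPM with docetaxel, 0.235 CPM with PF-06873600 and 0.123 CPM with DMSO. A gene this low passes the low-count filter mainly through the groups where it is high, so the filter sets part of this imbalance and the shares of the low class are a description only. With docetaxel library 1 thinned, 20.8% of the genes under 1 CPM were called higher and 0.624% lower, and 941 genes in all were at least 2-fold higher. The 81 genes at least 2-fold lower had medians of 1.19 CPM with docetaxel, 3.32 CPM with PF-06873600 and 1.02 CPM with DMSO.

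**Figure D1:**
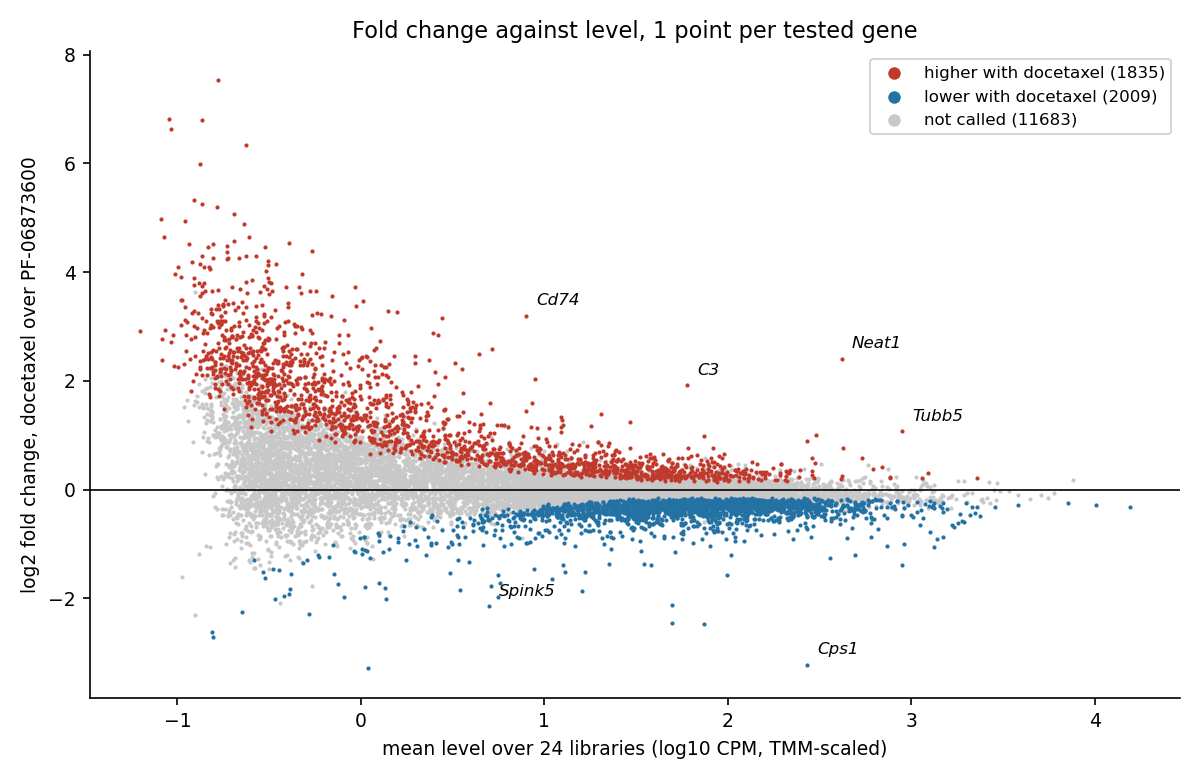
Log2 fold change of docetaxel over PF-06873600 (vertical axis) against mean level over 24 libraries in log10 CPM (horizontal axis), 1 point per tested gene, with the 1835 genes called higher in red, the 2009 called lower in blue and the 11683 not called in grey. The red points fan out at low levels, while Cd74, C3, Neat1 and Tubb5 are rises at higher levels and Cps1 and Spink5 are falls.

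The tubulin genes moved together. Of 15 tested members of a list of 20 tubulin genes, 10 were called higher with docetaxel and none lower, against 11.8% and 12.9% of all genes, and the list's median log2 fold change was 0.69. The coding starts of the main members are shown because the mechanism above reads the residues they encode. Decay of these mRNAs was not measured, and whether this mechanism set the differences between the drugs was not tested. Each line gives the first 30 coding bases, 5′ to 3′, with the first 12 in capitals, from GENCODE M21 transcripts of the GRCm38 (mm10) build.
Tubb5: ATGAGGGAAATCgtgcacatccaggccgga
Tubb4b: ATGAGGGAGATCgtgcacctgcaggctggg
Tubb2a: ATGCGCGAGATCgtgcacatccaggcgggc
Tubb2b: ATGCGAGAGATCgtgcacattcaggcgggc
Tubb3: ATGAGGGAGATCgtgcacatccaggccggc
Tuba1a: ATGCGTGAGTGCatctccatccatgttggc
Tuba1b: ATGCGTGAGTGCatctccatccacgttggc
Tuba1c: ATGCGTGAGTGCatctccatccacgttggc
Tubg1: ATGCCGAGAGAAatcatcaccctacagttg
Over those 12 bases, Tubb4b and Tubb3 each differed from Tubb5 at 1 position and Tubb2a and Tubb2b each at 3. Tuba1b and Tuba1c did not differ from Tuba1a there, while Tubg1 differed from Tubb5 at 7 positions and from Tuba1a at 8. The base differences among the beta-tubulin starts shown change no residue, since each encodes Met-Arg-Glu-Ile. The Tuba1 starts encode Met-Arg-Glu-Cys and the Tubg1 start Met-Pro-Arg-Glu.

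Tubb5, the main beta-tubulin gene of proliferating cells (chr17:35833921-35838306, minus strand), had 1677, 1953 and 1729 CPM with docetaxel, 846, 873 and 826 CPM with PF-06873600, and 681, 723 and 669 CPM with DMSO. The 3 docetaxel libraries were far above all others, and the difference between the drugs was 1.07 ± 0.08 on the log2 scale (SE, edgeR adjusted p = 1.19e-09), or 2.11-fold. Tubb4b, a broadly expressed beta-tubulin (chr2:25222160-25224702, minus strand), had 463, 559 and 504 CPM with docetaxel, 263, 291 and 272 CPM with PF-06873600, and 218, 240 and 202 CPM with DMSO. Its groups did not overlap either, with a log2 fold change of 0.89 ± 0.08 (edgeR adjusted p = 5.89e-08). Tubb2a, a beta-tubulin prominent in neurons, had 57.9, 67.7 and 58.3 CPM with docetaxel and 25.6, 27.1 and 24.4 CPM with PF-06873600, a log2 fold change of 1.25 ± 0.09 (edgeR adjusted p = 2.12e-09). Its close paralogue Tubb2b followed with 1.16 ± 0.12 on the log2 scale (edgeR adjusted p = 6.31e-07). The neuronal beta-tubulin Tubb3 was present at trace level, 1.04, 0.731 and 0.731 CPM with docetaxel and 0.235, 0.281 and 0.0757 CPM with PF-06873600, and it had no count in any DMSO library. Its log2 fold change between the drugs was 2.09 ± 0.52 (edgeR adjusted p = 0.00553).

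The alpha-tubulin genes were also higher. Tuba1a had 756, 934 and 744 CPM with docetaxel and 459, 521 and 449 CPM with PF-06873600, so the groups were apart, with a log2 fold change of 0.77 ± 0.11 (edgeR adjusted p = 4.37e-05). Tuba1b and Tuba1c, the ubiquitous alpha-tubulins, were higher by 0.41 ± 0.09 and 0.35 ± 0.07 on the log2 scale, and the beta-tubulin Tubb6 by 0.66 ± 0.08, each called. Gamma-tubulin, which nucleates microtubules rather than building them, was not called: Tubg1 averaged 67.4 CPM with docetaxel and 75.9 CPM with PF-06873600, a log2 fold change of -0.17 (edgeR adjusted p = 0.114). With the replicate number as a block it was called lower (adjusted p = 0.0473 in all groups and 0.0285 in the 6 libraries), and also without docetaxel library 2 (adjusted p = 0.0345). The other gamma-tubulin gene, Tubg2, pointed up without being called (log2 fold change 0.76, edgeR adjusted p = 0.262). It was at low level, with a mean of 1.14 TPM (transcript abundance scaled for gene length) with docetaxel and 0.603 TPM with PF-06873600. In the same unit Tubb5 averaged 1769 ± 48.0 with docetaxel, 769 ± 6.49 with PF-06873600 and 582 ± 18.3 with DMSO (SD, n = 3 each). Tuba1b averaged 1745 ± 91.5 TPM with docetaxel, 1202 ± 22.3 TPM with PF-06873600 and 951 ± 61.5 TPM with DMSO, so with docetaxel these 2 genes stood at similar levels per length, whereas with PF-06873600 and DMSO Tuba1b was above Tubb5. Against DMSO the list's median was 1.00 with docetaxel and 0.32 with PF-06873600. The reading factor Ttc5 itself was at 23.1, 19.1 and 22.2 CPM with docetaxel and 24.1, 21.4 and 23.5 CPM with PF-06873600, overlapping values (edgeR adjusted p = 0.555). All 10 calls were made in each of the 6 fits that left out 1 library. The Tubb2a and Tubb2b pair and the Tuba1 genes are near-identical copies, so reads may have been split between them.

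**Figure D2:**
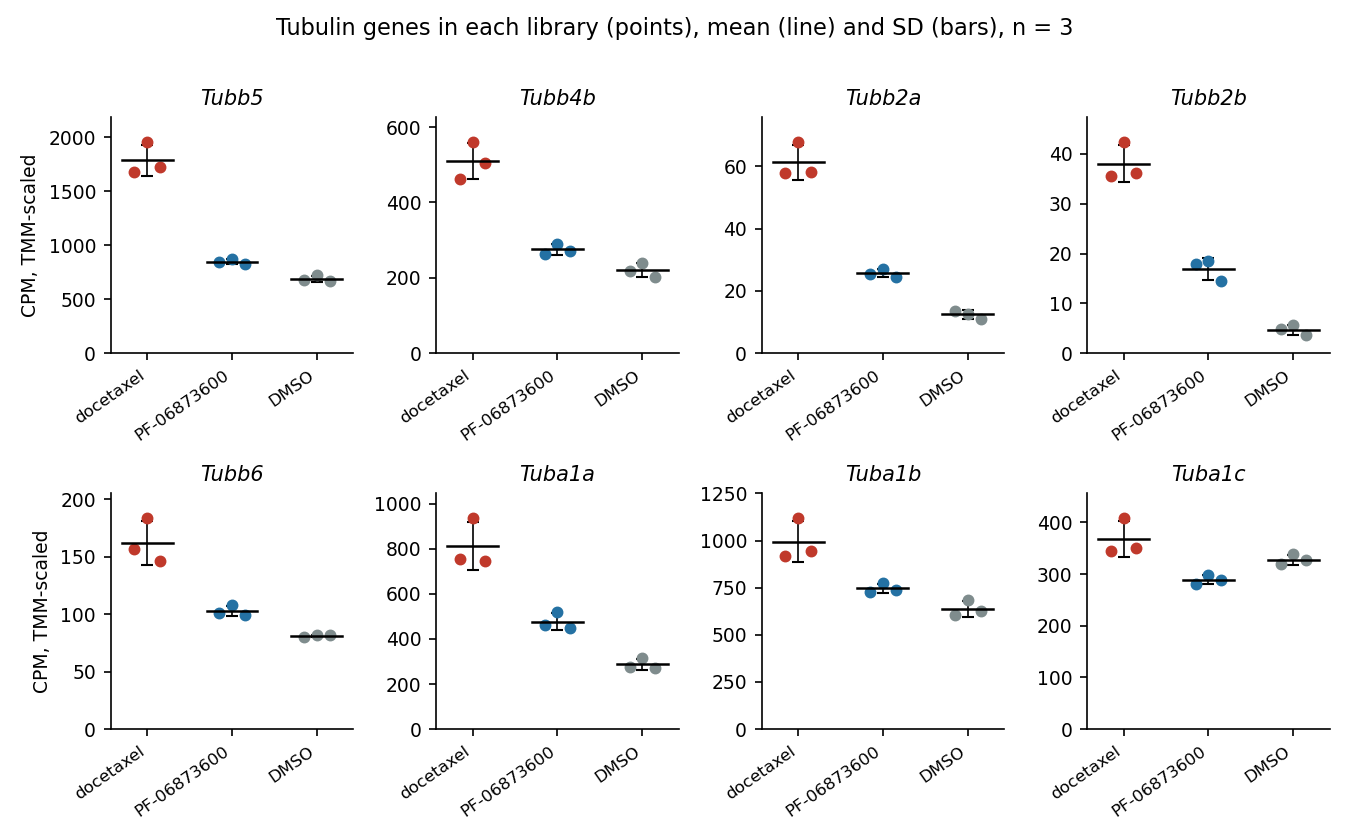
CPM (vertical axes, TMM-scaled) of 8 tubulin genes in docetaxel, PF-06873600 and DMSO libraries; points are libraries, lines are means and bars are SD (n = 3). In all 8 panels every docetaxel library lies above every PF-06873600 library, from 1677 against at most 873 CPM for Tubb5 to 345 against at most 298 CPM for Tuba1c.

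Genes that fold, modify or bind tubulin were called in both directions. Of 25 tested folding and modification genes, 1 was called higher (4%) and 4 lower (16%), with a median of -0.05. Of all tested genes, 11.8% were called higher and 12.9% lower. Pfdn1, a prefoldin subunit that hands unfolded tubulin to its chaperonin, was lower by 0.50 ± 0.14 on the log2 scale, a call lost without docetaxel library 1, docetaxel library 3 or PF-06873600 library 2. The tubulin deacetylase gene Hdac6 was lower by 0.36 ± 0.09, and that call was lost with total-count scaling. Of 27 tested microtubule-associated genes, 5 were called each way (18.5% each). That balance moved with the scaling, to 8 higher and 2 lower with total counts. The number higher was 2 without docetaxel library 2 or PF-06873600 library 3, and the number lower was 3 without docetaxel library 1, docetaxel library 3 or PF-06873600 library 1. Map4, the main microtubule-stabilising protein outside neurons, had 223, 233 and 236 CPM with docetaxel, 301, 328 and 295 CPM with PF-06873600 and 209, 230 and 233 CPM with DMSO. PF-06873600 libraries were thus the high ones, and the log2 fold change between the drugs was -0.42 ± 0.06 (edgeR adjusted p = 2.15e-05). Among 12 tested genes of drug transport and metabolism, 2 were called higher and 2 lower (16.7% each), near the shares of all genes. The paralogues Abcb1a and Abcb1b encode P-glycoprotein, the pump that exports taxanes. Abcb1a had 39.1, 40.1 and 37.2 CPM with docetaxel, 45.0, 52.1 and 48.1 CPM with PF-06873600, and 30.3, 38.4 and 31.8 CPM with DMSO. It was called lower with docetaxel than with PF-06873600 (log2 fold change -0.32 ± 0.11, edgeR adjusted p = 0.0301). That call was lost with total-count scaling (adjusted p = 0.127) and without docetaxel library 1 or 3 or PF-06873600 library 2 or 3. Abcb1b had 89.0, 93.0 and 90.1 CPM with docetaxel, 94.4, 105 and 102 CPM with PF-06873600, and 59.6, 71.2 and 63.0 CPM with DMSO. For Abcb1b both drug groups lay above DMSO, and between the drugs it was not called (log2 fold change -0.14 ± 0.08, edgeR adjusted p = 0.197). The organic anion carrier gene Slco2a1 was lower with docetaxel by 0.51 ± 0.07 on the log2 scale.

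Ccne1 stood out among genes of the CDK-RB-E2F step, where PF-06873600 acts. Of 12 tested genes for CDK2, CDK4, CDK6, their cyclins and activating kinase, none was called higher with docetaxel and 4 were lower, with a median of -0.16. Ccne1, the cyclin E that activates CDK2 (chr7:38097984-38107534, minus strand), had 10.7, 11.1 and 11.2 CPM with docetaxel, 22.1, 23.1 and 22.9 CPM with PF-06873600, and 8.20, 8.99 and 8.49 CPM with DMSO. The PF-06873600 libraries alone were high, and docetaxel was lower by 1.04 ± 0.09 on the log2 scale (edgeR adjusted p = 2.35e-08). Ccnd1, the cyclin D1 that activates CDK4 and CDK6, had 262, 290 and 255 CPM with docetaxel, 325, 327 and 312 CPM with PF-06873600, and 194, 211 and 200 CPM with DMSO. Both drugs were above DMSO and PF-06873600 highest, a log2 fold change between the drugs of -0.26 ± 0.07 (edgeR adjusted p = 0.00873). That call was lost with total-count scaling and without docetaxel library 3 or PF-06873600 library 2, and the list's 4 falls were then 1, 2 and 2. Cdk6 and Ccnd3 were lower by 0.33 ± 0.09 and 0.24 ± 0.08 and also lost their calls with total-count scaling, which leaves Ccne1. Rb1, which encodes RB, differed by -0.01 ± 0.10 and E2f1 by -0.01 ± 0.09. E2f2 was higher with docetaxel by 0.51 ± 0.14, 1 of 2 rises (9.52%) beside 3 falls (14.3%) among 21 tested RB, E2F and DREAM regulators, shares near those of all genes. That list had 5 rises and 1 fall with total-count scaling, and 3 rises and 7 falls in the blocked fit of all groups. Of 7 tested CDK inhibitor genes, 2 were called higher and none lower. Cdkn1a, which encodes the CDK inhibitor p21, had 51.1, 55.0 and 52.3 CPM with docetaxel, 42.3, 44.6 and 36.7 CPM with PF-06873600, and 27.2, 29.0 and 27.5 CPM with DMSO. The 3 groups did not overlap, and the difference between the drugs was 0.36 ± 0.07 (edgeR adjusted p = 0.00121).

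Of 52 genes of origin licensing and DNA synthesis, 2 were called higher with docetaxel and 14 lower, with a median of -0.12. The imbalance depended on the scaling: with total counts 5 were higher and 5 lower with a median of 0.00171, and limma on TPM gave 4 higher and 5 lower. The number lower was 6 without docetaxel library 1, 9 without docetaxel library 3, 7 without PF-06873600 library 2 and 8 without PF-06873600 library 3. Both drugs stood above DMSO over this list, with medians of 0.39 for docetaxel and 0.44 for PF-06873600. Tyms, the thymidylate synthase gene, had 17.4, 18.5 and 19.7 CPM with docetaxel, 32.8, 36.8 and 33.0 CPM with PF-06873600, and 22.9, 23 and 21.9 CPM with DMSO. Docetaxel libraries were below DMSO and PF-06873600 libraries above it, and the drugs differed by -0.89 ± 0.11 (edgeR adjusted p = 3.14e-06). Ung, which removes uracil from DNA, was lower by 0.63 ± 0.08. The DNA topoisomerase gene Top2a had 272, 282 and 290 CPM with docetaxel and 289, 335 and 317 CPM with PF-06873600, which was not called (log2 fold change -0.16 ± 0.18, edgeR adjusted p = 0.568).

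Genes of G2 and mitosis, the phase that taxanes disturb, leaned upward. Of 84 tested, 16 were called higher with docetaxel and none lower, with a median of 0.22, and 54 had all docetaxel libraries above all PF-06873600 libraries, against 20.5% of all genes. Aurka, the kinase that matures spindle poles, had 57.4, 70.2 and 63.6 CPM with docetaxel, 41.7, 44.3 and 45.3 CPM with PF-06873600, and 23.7, 24.6 and 25.6 CPM with DMSO. No groups overlapped, and the drugs differed by 0.54 ± 0.15 on the log2 scale (edgeR adjusted p = 0.00948). Troap, which encodes a spindle pole protein, was higher by 0.63 ± 0.15. Cenpf, a kinetochore protein gene, and Aspm, a spindle pole protein gene, were higher by 0.55 ± 0.17 and 0.57 ± 0.18. Both lost their calls without docetaxel library 2, PF-06873600 library 1 or PF-06873600 library 3, and Cenpf also without docetaxel library 3. Mki67, the proliferation marker gene, had 116, 139 and 149 CPM with docetaxel and 96.1, 106 and 95.6 CPM with PF-06873600. The groups did not overlap, but the difference of 0.44 ± 0.18 missed the threshold (edgeR adjusted p = 0.076). The cyclin B1 gene Ccnb1 was similar, at 0.44 ± 0.17 (edgeR adjusted p = 0.0655). The count moved with the fit. With the replicate number as a block it was 32 in the fit of all groups, where Mki67 and Ccnb1 passed (adjusted p = 0.0283 and 0.0113), and 57 in the fit of the 6 libraries. It was 35 with total-count scaling, 9 without docetaxel library 2 or 3 and 6 without PF-06873600 library 1. Of 33 genes for recombination repair and Fanconi proteins, 1 was called in each direction (3.03% each), below the 11.8% and 12.9% of all genes.

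Genes of the unfolded protein response, which raises the folding capacity of the endoplasmic reticulum (ER), were lower with docetaxel. Of 22 tested, 18 were called lower and none higher, against 12.9% and 11.8% of all genes, with a median of -0.38. For 21 of them all docetaxel libraries lay below all PF-06873600 libraries. Hspa5, which encodes the ER chaperone BiP (chr2:34771970-34777547, plus strand), had 1027, 1120 and 1083 CPM with docetaxel, 1629, 1792 and 1614 CPM with PF-06873600, and 1905, 1854 and 1671 CPM with DMSO. Docetaxel libraries were the low ones and PF-06873600 overlapped DMSO, and the drugs differed by -0.64 ± 0.07 on the log2 scale (edgeR adjusted p = 1.36e-06). Xbp1, whose spliced mRNA encodes a transcription factor of this response, had 151, 147 and 144 CPM with docetaxel, 240, 234 and 236 CPM with PF-06873600, and 444, 463 and 432 CPM with DMSO. Here the 3 groups were stepped, with a difference between the drugs of -0.68 ± 0.06 (edgeR adjusted p = 7.06e-08). The ER-resident factor gene Manf and the co-chaperone gene Dnajb9 were lower by 0.67 ± 0.11 and 0.65 ± 0.08, and the calcium-binding chaperone gene Calr by 0.48 ± 0.10. Against DMSO the list's median was -0.59 with docetaxel and -0.17 with PF-06873600. The number lower was 16 to 21 when 1 library was left out and 15 with total-count scaling.

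Promoters of several of these genes hold the ER stress response element, spelled CCAAT, any 9 bases, then CCACG, which the factors ATF6 and XBP1 are known to bind together with NF-Y. A stretch from 3 of them is shown, on the gene's strand, 5′ to 3′, with the match in capitals, from RefSeq promoters of GRCm38.p6 (250 bases before to 50 after the start). The matches in Calr and Creld2 are on the opposite strand, so they read in reverse complement.
Hspa5, chr2:34771985-34772083, plus strand: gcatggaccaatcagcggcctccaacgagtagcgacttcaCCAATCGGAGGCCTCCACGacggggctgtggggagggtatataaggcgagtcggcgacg
Calr, chr8:84847035-84847133, minus strand: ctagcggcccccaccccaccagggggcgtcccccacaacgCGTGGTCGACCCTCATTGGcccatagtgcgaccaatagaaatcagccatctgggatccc
Creld2, chr15:88819480-88819578, plus strand: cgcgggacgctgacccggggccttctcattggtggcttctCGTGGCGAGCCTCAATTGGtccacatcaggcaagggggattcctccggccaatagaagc
Searched on both strands, the element was present in 39 of 32851 mouse promoters (0.119%). Of the 19 tested members of the list with a promoter, 8 held it. Of these 8, 7 were called lower (median log2 fold change -0.41), and of the 11 without it 8 were called lower (median -0.38). Outside the list, 14 tested genes held the element, of which 1 was called lower and 3 higher.

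The integrated stress response, in which ATF4 drives amino acid supply genes, was lower too. Of 24 tested genes, 16 were called lower with docetaxel and none higher, with a median of -0.32. Against DMSO the medians were 0.05 with docetaxel and 0.38 with PF-06873600, so PF-06873600 stood above both. Trib3, a pseudokinase gene that ATF4 induces, had 10.8, 11.9 and 10.8 CPM with docetaxel, 17.8, 20.9 and 18.1 CPM with PF-06873600, and 5.50, 6.51 and 5.62 CPM with DMSO. The 3 groups were apart, and the drugs differed by -0.76 ± 0.12 (edgeR adjusted p = 6.44e-05). Cth, which makes cysteine from cystathionine, was lower by 0.88 ± 0.08 and the mitochondrial folate enzyme gene Aldh1l2 by 0.88 ± 0.18. Ppp1r15a, the phosphatase subunit gene that ends this response, had 54.4, 50.8 and 50.6 CPM with docetaxel, 97.8, 96.2 and 97 CPM with PF-06873600, and 176, 143 and 144 CPM with DMSO. It was lowest with docetaxel and highest with DMSO, at -0.90 ± 0.10 between the drugs. The number lower was 10 with total-count scaling and 8 with limma on TPM.

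Glycolysis and hypoxia genes were lower with both drugs than with DMSO, and lower still with docetaxel. Of 27 tested, 3 were called higher and 17 lower between the drugs, with a median of -0.38, and the medians against DMSO were -1.47 with docetaxel and -1.06 with PF-06873600. Pgk1, the phosphoglycerate kinase gene (chrX:106187100-106203699, plus strand), had 694, 831 and 721 CPM with docetaxel, 1343, 1388 and 1398 CPM with PF-06873600, and 3711, 4347 and 4082 CPM with DMSO. The steps between the 3 groups far exceeded the spread within them, and the drugs differed by -0.88 ± 0.14 (edgeR adjusted p = 0.000133). Ldha, the lactate dehydrogenase A gene, had 724, 862 and 722 CPM with docetaxel, 1178, 1235 and 1193 CPM with PF-06873600, and 2435, 2688 and 2373 CPM with DMSO, again in 3 separate steps, with -0.64 ± 0.12 between the drugs. The liver-type phosphofructokinase gene Pfkl and the collagen prolyl hydroxylase gene P4ha1 were lower by 0.84 ± 0.11 and 0.81 ± 0.10. The number lower was 16 or 17 when 1 library was left out. Of 22 tested targets of the antioxidant factor NRF2, 1 was called higher and 8 lower. G6pdx, which opens the pentose phosphate pathway, was lower by 0.70 ± 0.06, and the malic enzyme gene Me1 by 0.53 ± 0.08. With the replicate block 13 NRF2 targets were lower in the fit of all groups.

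Actin cytoskeleton genes and targets of serum response factor (SRF), a factor that senses free actin through its MRTF partners, were mostly lower. Of 26 tested, 1 was called higher and 17 lower, with a median of -0.33. Actg1, the cytoplasmic gamma-actin gene (chr11:120345690-120348542, minus strand), had 699, 789 and 650 CPM with docetaxel, 1228, 1258 and 1201 CPM with PF-06873600, and 1854, 1978 and 2056 CPM with DMSO. The groups were stepped with no overlap, and the drugs differed by -0.79 ± 0.08 (edgeR adjusted p = 1.1e-07). The calponin gene Cnn2 had 117, 128 and 109 CPM with docetaxel, 229, 230 and 208 CPM with PF-06873600, and 279, 253 and 249 CPM with DMSO, a difference of -0.91 ± 0.08 between the drugs. Srf itself had 34.2, 37.1 and 29.0 CPM with docetaxel, 48.6, 47.5 and 49.0 CPM with PF-06873600, and 89.7, 80.6 and 114 CPM with DMSO. Docetaxel was the lowest of the 3 groups for both, and for Srf the drugs differed by -0.53 ± 0.11 (edgeR adjusted p = 0.00105). The tropomyosin gene Tpm1 was lower by 0.72 ± 0.06. The number lower was 15 to 17 when 1 library was left out, 14 with total-count scaling and 10 with limma on TPM.

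SRF binds the CArG box, and stretches from 3 of these promoters are shown in the same way, with the box in capitals (GRCm38.p6, gene's strand, 5′ to 3′). The Srf promoter holds 2 boxes.
Actg1, chr11:120348536-120348625, minus strand: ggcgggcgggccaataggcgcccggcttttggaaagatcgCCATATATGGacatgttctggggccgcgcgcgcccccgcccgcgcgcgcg
Cnn2, chr10:79988504-79988593, plus strand: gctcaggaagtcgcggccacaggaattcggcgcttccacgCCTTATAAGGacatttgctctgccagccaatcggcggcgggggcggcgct
Srf, chr17:46556175-46556284, minus strand: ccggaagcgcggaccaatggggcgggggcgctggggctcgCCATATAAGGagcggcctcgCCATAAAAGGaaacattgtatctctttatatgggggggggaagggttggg
Searched on both strands, the box was in 535 of 32851 promoters (1.63%) and in 7 of the 23 tested list members with a promoter. Of those 7, 5 were called lower (median -0.53), and of the 16 without it 11 were (median -0.32). Outside the list 167 tested genes held it, of which 27 were called lower and 22 higher.

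Targets of YAP and TEAD and the early-response genes followed. Of 22 tested YAP and TEAD targets, 1 was called higher and 10 lower. Ccn1, a secreted matricellular protein gene, had 281, 257 and 229 CPM with docetaxel, 554, 524 and 493 CPM with PF-06873600, and 2162, 2264 and 2162 CPM with DMSO. Docetaxel libraries were lowest, DMSO libraries highest, and the drugs differed by -1.03 ± 0.09 (edgeR adjusted p = 3.12e-08). Amotl2, a YAP target that restrains YAP, was lower by 0.73 ± 0.08. Of 27 tested early-response genes, 2 were called higher and 9 lower. These counts were 6 and 7 with total-count scaling, and 7 and 11 in the blocked fit of the 6 libraries. Fos had 138, 138 and 121 CPM with docetaxel, 309, 305 and 331 CPM with PF-06873600, and 534, 515 and 487 CPM with DMSO, with no overlap and -1.25 ± 0.08 between the drugs (edgeR adjusted p = 2.08e-10). Egr1, another early transcription factor gene, went the opposite way between the drugs: 340, 335 and 293 CPM with docetaxel, 188, 154 and 141 CPM with PF-06873600, and 893, 624 and 578 CPM with DMSO. PF-06873600 was the lowest group there, and the difference between the drugs was 1.00 ± 0.17 (edgeR adjusted p = 0.000188). With limma on TPM, 6 YAP and TEAD targets and 4 early-response genes were lower. Of 13 tested ERK output genes, 2 were called higher (15.4%) and 3 lower (23.1%), against 11.8% and 12.9% of all genes.

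**Figure D3:**
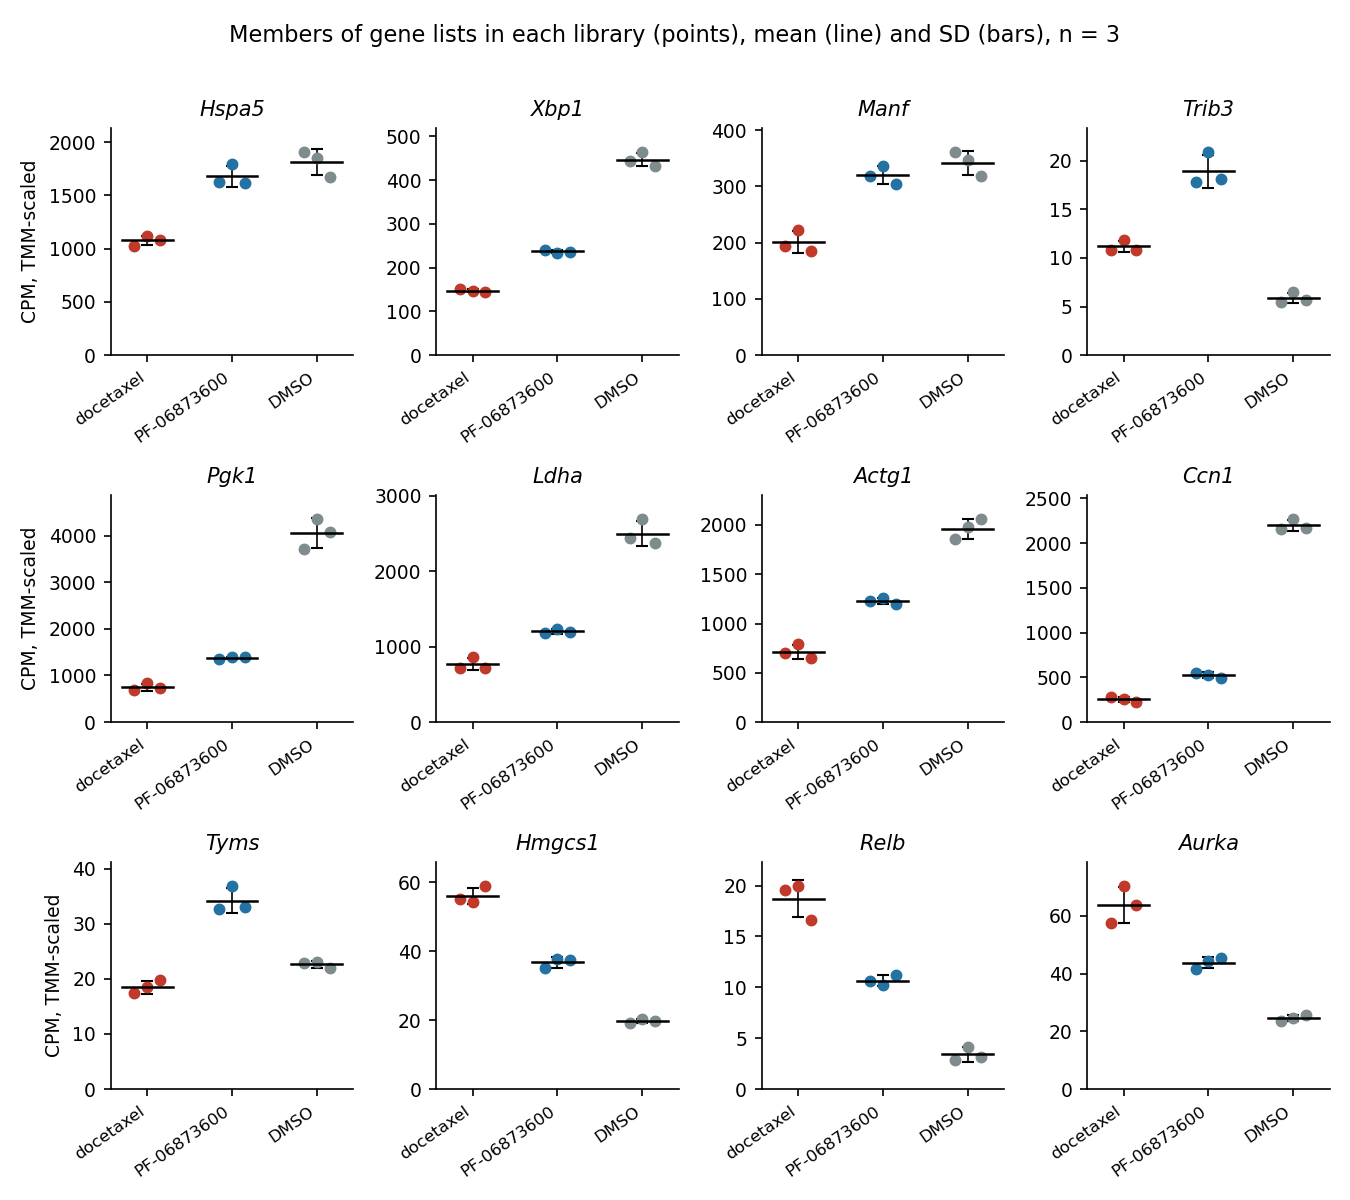
CPM (vertical axes, TMM-scaled) of 12 members of the gene lists in docetaxel, PF-06873600 and DMSO libraries; points are libraries, lines are means and bars are SD (n = 3). Hspa5, Xbp1, Manf, Pgk1, Ldha, Actg1 and Ccn1 are lowest with docetaxel, Trib3 and Tyms are highest with PF-06873600, and Hmgcs1, Relb and Aurka are highest with docetaxel.

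The largest changes among genes of at least 10 CPM in a drug group involved few of these lists. Cd74, the invariant chain that escorts MHC class II molecules, had 31.4, 36.3 and 27.8 CPM with docetaxel, 3.60, 3.98 and 2.84 CPM with PF-06873600, and at most 0.0829 CPM with DMSO. Docetaxel libraries were all high, and the difference between the drugs was 3.20 ± 0.16 on the log2 scale (edgeR adjusted p = 2.72e-12), or 9.18-fold. Ttr, the transthyretin gene, had 11, 11.7 and 11.1 CPM with docetaxel and 1.41, 1.49 and 1.82 CPM with PF-06873600, a log2 fold change of 2.84 ± 0.26. The water channel gene Aqp1 had 15.9, 19.0 and 14.7 CPM with docetaxel and 2.93, 2.65 and 2.65 CPM with PF-06873600 (2.59 ± 0.19). The rule for these largest rises admits only genes whose drug groups do not overlap, so non-overlap adds no support. Vcam1, an adhesion molecule for leukocytes, was higher by 2.33 ± 0.22, the collagen XVIII gene Col18a1 by 2.22 ± 0.24 and the periaxin gene Prx by 2.03 ± 0.13. Fam89a was higher by 1.60 ± 0.22 and the histone H4 gene H4c9 by 1.60 ± 0.16, and histone H4 genes are near-identical copies. Complement C3, the hub protein of the complement cascade (chr17:57203970-57228136, minus strand), had 127, 144 and 114 CPM with docetaxel, 35.7, 37.6 and 28.6 CPM with PF-06873600, and 2.31, 3.77 and 2.31 CPM with DMSO. The 3 groups were far apart, with 1.92 ± 0.13 between the drugs (edgeR adjusted p = 1.19e-09).

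Neat1, the long noncoding RNA that scaffolds nuclear paraspeckles (chr19:5824708-5845478, minus strand), had 1072, 306 and 1115 CPM with docetaxel, 206, 59.6 and 205 CPM with PF-06873600, and 154, 42.7 and 172 CPM with DMSO. Library 2 was low in every group. Each docetaxel library exceeded all PF-06873600 libraries, which the rule for the largest changes requires. The log2 fold change was 2.41 ± 0.67 (edgeR adjusted p = 0.0107), and without PF-06873600 library 2 it was 2.03 with an adjusted p of 0.0602. Malat1, another abundant nuclear RNA, had 671, 280 and 675 CPM with docetaxel and 445, 326 and 410 CPM with PF-06873600. Its groups overlapped through docetaxel library 2 (log2 fold change 0.46 ± 0.34, edgeR adjusted p = 0.341). It passed with the replicate block in the 6 libraries (log2 fold change 0.397, adjusted p = 0.000237) and without the libraries numbered 2 (0.662, adjusted p = 0.0135). Of 5 tested nuclear noncoding RNAs, 2 were called higher and none lower. The number higher was 0 without PF-06873600 library 2, 1 without docetaxel library 1, docetaxel library 3 or PF-06873600 library 1, and 4 in the blocked fit of the 6 libraries.

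Cps1 led the falls. This gene, which encodes the mitochondrial carbamoyl phosphate synthase of the urea cycle (chr1:67123026-67231259, plus strand), had 45.3, 48.1 and 36.1 CPM with docetaxel, 364, 384 and 460 CPM with PF-06873600, and 375, 475 and 438 CPM with DMSO. PF-06873600 and DMSO libraries overlapped and docetaxel libraries were far below both, 3.22 ± 0.18 lower than PF-06873600 on the log2 scale (edgeR adjusted p = 2.43e-11), or 9.33-fold. The protease inhibitor gene Spink5 (-2.14 ± 0.20), the cholecystokinin gene Cck (-1.86 ± 0.15) and the interleukin-33 receptor gene Il1rl1 (-1.51 ± 0.11) were highest with PF-06873600. Prom2, a membrane protein of epithelial protrusions, had 28.4, 27.9 and 26.8 CPM with docetaxel, 79.1, 81.4 and 85.6 CPM with PF-06873600, and 54.8, 56.5 and 64.2 CPM with DMSO, separate in all 3 groups (-1.56 ± 0.07). Trdc, annotated as the constant segment of the T-cell receptor delta chain, had 14.4, 16.9 and 14.2 CPM with docetaxel, 81.8, 86.8 and 79.2 CPM with PF-06873600, and 47.3, 53.6 and 46.0 CPM with DMSO. It was thus well above 10 CPM in every library, while the 10 lymphocyte markers summed to at most 2.15 CPM in any of them. The noncoding RNA gene Lncenc1 was lower by 1.65 ± 0.13. Fosb, an early-response factor gene, varied widely within groups, at 10.8, 5.58 and 9.25 CPM with docetaxel, 37.8, 24.6 and 52.0 CPM with PF-06873600, and 164, 68.5 and 147 CPM with DMSO. The drugs differed by -2.12 ± 0.38 for Fosb (edgeR adjusted p = 0.000288). The rule for these largest falls admits only genes whose drug groups do not overlap, so non-overlap adds no support.

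**Figure D4:**
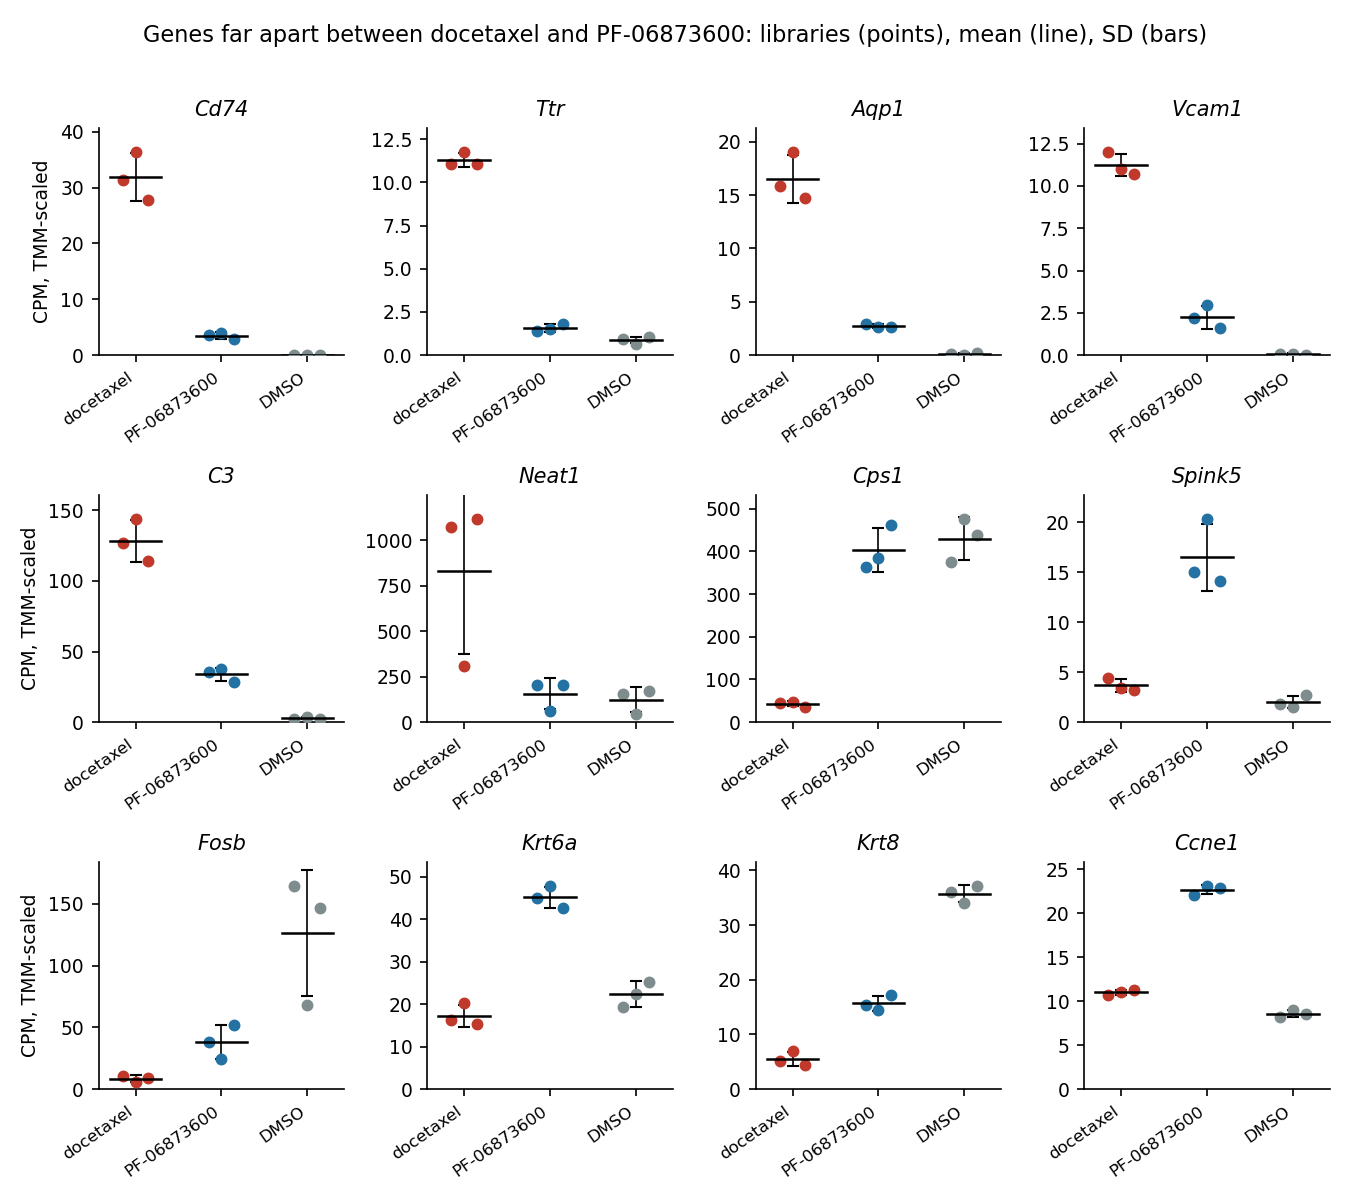
CPM (vertical axes, TMM-scaled) of 12 genes far apart between the drugs, in docetaxel, PF-06873600 and DMSO libraries; points are libraries, lines are means and bars are SD (n = 3). Cd74, Ttr, Aqp1, Vcam1, C3 and Neat1 are highest with docetaxel, Cps1 and Krt8 are lowest with docetaxel, and Spink5, Krt6a and Ccne1 are highest with PF-06873600.

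Inflammatory genes were more often higher with docetaxel. Of 24 tested NF-kB subunits and targets, 11 were called higher and 1 lower, with a median of 0.22. Relb, the noncanonical NF-kB subunit gene, had 19.6, 19.9 and 16.6 CPM with docetaxel, 10.6, 10.2 and 11.2 CPM with PF-06873600, and 2.84, 4.19 and 3.19 CPM with DMSO. No groups overlapped, and the drugs differed by 0.81 ± 0.11 (edgeR adjusted p = 1.21e-05). The adaptor gene Traf2 was higher by 0.61 ± 0.08, the inhibitor gene Nfkbia by 0.58 ± 0.09 and the adhesion molecule gene Icam1 by 1.21 ± 0.19. Of 26 tested cytokines and chemokines linked to the secretory phenotype of senescent cells, 12 were called higher and 3 lower, with a median of 0.51. Their summed level went the other way, at 2070 to 2292 CPM with docetaxel and 2314 to 2440 CPM with PF-06873600. With DMSO the sum was 1299 to 1463 CPM. More genes were thus higher with docetaxel, but not the list's total. Ccl9, a myeloid chemokine gene, had 15.1, 18.4 and 15.8 CPM with docetaxel, 7.08, 8 and 6.36 CPM with PF-06873600, and 0.349, 0.166 and 0.159 CPM with DMSO. Docetaxel libraries were all higher, by 1.2 ± 0.19. Cx3cl1, a chemokine gene for monocytes and lymphocytes, was higher by 0.84 ± 0.13 and the neutrophil chemokine gene Cxcl1 by 0.68 ± 0.12. Of 15 tested complement and coagulation genes, 5 were called higher, C3 among them, and 2 lower. The lower ones included the fibrinogen beta gene Fgb (-1.37 ± 0.18), and the number higher was 3 without docetaxel library 2 or PF-06873600 library 3. Leaving out 1 library gave 8 to 10 NF-kB genes and 11 or 12 cytokines higher.

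Of 49 tested interferon-stimulated genes, 6 were called higher (12.2%) and 4 lower (8.16%), near the shares of all genes. Their median log2 fold change was 0.237, and 17 of the 49 had all docetaxel libraries above all PF-06873600 libraries, against 20.5% of all genes. The medians against the shared DMSO libraries were 1.73 with docetaxel and 1.64 with PF-06873600. The number higher was 2 without docetaxel library 1, docetaxel library 3 or PF-06873600 library 2, 3 without PF-06873600 library 3, and 11 and 16 in the blocked fits of all groups and of the 6 libraries. Usp18, a protease gene that dampens interferon signalling, was higher with docetaxel by 0.89 ± 0.22. Ifit3 had 4.31, 3.42 and 3.36 CPM with docetaxel, 6.88, 5.83 and 6.62 CPM with PF-06873600, and 1.31, 0.746 and 1.32 CPM with DMSO. PF-06873600 was highest for this antiviral gene (-0.78 ± 0.21) and for its near-identical copy Ifit3b (-1.30 ± 0.28). Of 14 tested genes of DNA and RNA sensing, 3 were called higher (21.4%) and 2 lower (14.3%), against 11.8% and 12.9% of all genes. The double-stranded RNA receptor gene Tlr3 was lower with docetaxel by 0.64 ± 0.07 and the endotoxin receptor gene Tlr4 by 0.50 ± 0.10. Of 19 tested MHC class I genes, 1 was called higher and 4 lower, and B2m, the light chain, differed by -0.05 ± 0.10. Of 18 tested checkpoint and other immune ligands, 4 were called higher and 5 lower. Ceacam1, an inhibitory adhesion receptor gene, had 99.9, 102 and 101 CPM with docetaxel, 180, 166 and 184 CPM with PF-06873600, and 157, 161 and 189 CPM with DMSO. Docetaxel libraries alone were low, by 0.81 ± 0.07 (edgeR adjusted p = 6.04e-08). Cd274, which encodes PD-L1, had 3.41, 2.58 and 3.91 CPM with docetaxel and 2.11, 2.21 and 2.23 CPM with PF-06873600. It missed the threshold (0.60 ± 0.23, edgeR adjusted p = 0.0612) and passed with the replicate block (adjusted p = 0.0372 in all groups).

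Secreted matrix and growth factor genes changed in both directions. Of 30 tested mesenchymal and matrix genes, 11 were called higher and 4 lower. Postn, a matricellular protein gene, had 39.4, 43.8 and 34.4 CPM with docetaxel, 16.1, 14.1 and 14.5 CPM with PF-06873600, and 0.742, 0.414 and 0.439 CPM with DMSO. All groups were apart, with 1.40 ± 0.11 between the drugs (edgeR adjusted p = 7.96e-09). The laminin gene Lamb3 was higher by 1.14 ± 0.14, while Sulf2, an enzyme that trims heparan sulphate, was lower by 0.67 ± 0.11. Of 20 tested proteases and inhibitors, 7 were called higher and 5 lower. The tissue plasminogen activator gene Plat had 153, 163 and 145 CPM with docetaxel, 193, 217 and 200 CPM with PF-06873600, and 92.5, 99.9 and 88.0 CPM with DMSO, so both drugs exceeded DMSO and PF-06873600 most (-0.41 ± 0.08). The sheddase gene Adam17 and the urokinase receptor gene Plaur were lower by 0.45 ± 0.07 and 0.53 ± 0.09. Of 18 tested growth factors and binding proteins, 7 were called higher and 3 lower. The fibroblast growth factor gene Fgf1 was higher by 0.82 ± 0.18, and the EGF-like ligand gene Hbegf and the binding protein gene Igfbp5 were lower by 0.52 ± 0.11 and 0.50 ± 0.09. The growth factors called higher numbered 3 without docetaxel library 1, PF-06873600 library 1 or PF-06873600 library 3, and 4 without docetaxel library 2 or 3. The proteases and inhibitors called higher numbered 4 without docetaxel library 1 or 2 or PF-06873600 library 2, and 3 without PF-06873600 library 3.

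Cholesterol genes were higher with docetaxel. Of 26 tested genes of sterol synthesis and uptake, 14 were called higher and 1 lower, with a median of 0.23, and both drugs were above DMSO (medians 0.68 with docetaxel and 0.43 with PF-06873600). Hmgcs1, which makes the precursor of mevalonate, had 55.1, 54.4 and 58.9 CPM with docetaxel, 35, 37.8 and 37.5 CPM with PF-06873600, and 19.2, 20.3 and 19.8 CPM with DMSO. The 3 groups formed separate steps with narrow spread, and the drugs differed by 0.61 ± 0.07 (edgeR adjusted p = 3.92e-06). The isopentenyl diphosphate isomerase gene Idi1 was higher by 0.47 ± 0.12 and the squalene epoxidase gene Sqle by 0.39 ± 0.07. The single fall was the sterol isomerase gene Ebp, at -0.53 ± 0.11. The number higher was 8 without docetaxel library 1 and 9 without PF-06873600 library 2. Of 19 tested fatty acid genes, 2 were called higher and 7 lower. The number lower was 3 without docetaxel library 3 or PF-06873600 library 2, and with total-count scaling 5 were higher and 3 lower. The desaturase gene Fads2 was lower by 0.36 ± 0.06, and Acacb, an acetyl-CoA carboxylase gene, was higher by 0.71 ± 0.16.

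Epithelial genes split. Of 15 tested luminal genes, 4 were called higher and 5 lower, and the number lower was 3 with total-count scaling or without docetaxel library 3. The keratin gene Krt8 had 5.17, 6.96 and 4.50 CPM with docetaxel, 15.4, 14.5 and 17.2 CPM with PF-06873600, and 36.0, 34.0 and 37.1 CPM with DMSO. It stepped down across the groups (-1.51 ± 0.15 between the drugs, edgeR adjusted p = 2.86e-07), and Krt7 did likewise (-0.90 ± 0.12). Of the 4 luminal rises, Sord, the sorbitol dehydrogenase gene, was above 10 CPM, and Cdh1, Tmprss2 and Prom1 were below 1 CPM in both drug groups. Of 15 tested basal and squamous genes, 4 were called higher and 5 lower. Krt6a, a keratin of activated squamous cells, had 16.3, 20.2 and 15.3 CPM with docetaxel, 44.9, 47.7 and 42.7 CPM with PF-06873600, and 19.3, 22.5 and 25.3 CPM with DMSO. PF-06873600 libraries alone were high (-1.39 ± 0.10, edgeR adjusted p = 3.04e-09). Sbsn, a secreted protein gene of the upper epidermis, was higher with docetaxel by 0.76 ± 0.19, and the keratin gene Krt15 was lower by 0.95 ± 0.23. Of 25 tested junction genes, 3 were called higher and 7 lower, or 4 lower with total-count scaling. The claudin gene Cldn12 and the adhesion molecule gene F11r were lower by 0.62 ± 0.07 and 0.38 ± 0.07. The epithelial protease gene Prss8 had 6.45, 8.16 and 6.18 CPM with docetaxel, 15.5, 13.5 and 14.8 CPM with PF-06873600, and 48.0, 57.0 and 45.3 CPM with DMSO, a difference of -1.09 ± 0.12 between the drugs.

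Markers of other cell types moved with the drugs at trace level. The 9 fibroblast markers summed to 26.8 to 27.9 CPM in docetaxel libraries, 24.9 to 27.7 CPM in PF-06873600 libraries and 13.5 to 22 CPM in DMSO libraries, nearly all of it Pdgfra, and Lum and Fap were at 0 in both drug groups. The 8 endothelial markers summed to 3.65 to 5.41 CPM in docetaxel libraries, 2.25 to 2.91 CPM in PF-06873600 libraries and 0.199 to 0.698 CPM in DMSO libraries. Of the 3 tested endothelial markers 2 were called higher with docetaxel (Pecam1 and Tek), of the 4 tested fibroblast markers 3 (Pdgfrb, Dcn and Col1a1), and the 1 tested lymphocyte marker, Cd79a, was higher too. Such trace genes pass the low-count filter through the group where they are high, so these calls are a description only. The Col1a1 call (adjusted p = 0.0397) was lost without docetaxel library 1 or 3, without PF-06873600 library 1 or 2, and with docetaxel library 1 thinned. Of the 2 tested macrophage markers, none was called by edgeR or DESeq2, and none had an unadjusted p under 0.05. The 11 macrophage markers summed to 3.31 to 4.58 CPM in docetaxel libraries, 2.62 to 3.63 CPM in PF-06873600 libraries and 1.28 to 2.87 CPM in DMSO libraries. The 10 lymphocyte markers summed to 1.35 to 2.15 CPM with docetaxel, 0.492 to 0.523 CPM with PF-06873600 and at most 0.131 CPM with DMSO. C1qa, S100a9, Cd3d, Ms4a1, Nkg7, Thy1 and Emcn were at 0 in the PF-06873600 libraries and had 1 to 5 counts in the docetaxel libraries together, and Ncr1 was at 0 in both. Their part in the immune and matrix values above was not tested. In bulk RNA, fewer cells of a type and less RNA per cell cannot be told apart.

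Death and p53 genes were called about as often as all genes. Of 30 tested p53 targets, 3 were called higher (10%) and 5 lower (16.7%), against 11.8% and 12.9% of all genes. With total counts as the scaling 7 were higher and 3 lower, and the number lower was 3 in each fit that left out 1 library. Ccng1, a p53 target that binds a phosphatase, had 51.1, 51.2 and 49.0 CPM with docetaxel, 69.2, 77.6 and 74.4 CPM with PF-06873600, and 71.0, 80.4 and 74.1 CPM with DMSO. Docetaxel libraries alone were low (-0.55 ± 0.08, edgeR adjusted p = 3.82e-05), and Mdm2 was not called (0.13 ± 0.07). Of 16 tested BCL2 family genes, 1 was called higher (6.25%) and 3 lower (18.8%), and with total-count scaling 4 were higher and 2 lower. The rise was Bcl2l11, which encodes the death activator BIM, with 85.2, 76.0 and 87.8 CPM with docetaxel, 59.1, 55.3 and 56.5 CPM with PF-06873600, and 58.0, 55.5 and 66.6 CPM with DMSO. Docetaxel was above both other groups, by 0.54 ± 0.07 against PF-06873600 (edgeR adjusted p = 1.65e-05). Bcl2l1, the gene of the survival factor BCL-XL, had 161, 185 and 163 CPM with docetaxel and 214, 208 and 197 CPM with PF-06873600, lower by 0.28 ± 0.07, and the death effector gene Bak1 was lower by 0.50 ± 0.10.

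The remaining lists had smaller medians. Of 36 tested lysosome genes, 11 were called lower and none higher, with the sialidase gene Neu1 at -0.71 ± 0.08 and the acid lipase gene Lipa at -0.48 ± 0.10. The count lower was 3 without docetaxel library 1 or 3, 2 without PF-06873600 library 2 and 6 without PF-06873600 library 3, and the balance turned with total-count scaling, to 6 higher and 2 lower with a median of 0.01. Glb1, the lysosomal beta-galactosidase gene, differed by 0.09 ± 0.08. Of 49 ribosome biogenesis genes, 9 were called lower and none higher. Npm1, the nucleophosmin gene, had 1096, 1173 and 1220 CPM with docetaxel, 1757, 1832 and 1754 CPM with PF-06873600, and 2477, 2474 and 2196 CPM with DMSO. The groups were stepped (-0.61 ± 0.08 between the drugs), although the list's count was 4 without docetaxel library 1 or PF-06873600 library 2, and with total-count scaling 5 were higher and 3 lower with a median of 0.03. Of 17 lamin and nuclear envelope genes, 2 were called higher (11.8%) and 3 lower (17.6%), near the shares of all genes. Sun2, which ties the nuclear envelope to the cytoskeleton, was higher by 0.36 ± 0.06, the pore protein gene Nup210 was lower by 0.48 ± 0.09, and Lmnb1 differed by 0.01 ± 0.11. None of 14 tested genes of the mitochondrial genome was called by edgeR in the fit of all groups without a block, by DESeq2 or by limma, and none had an unadjusted p under 0.05 in that edgeR fit. In the blocked fit of the 6 libraries 2 were higher and 1 lower, and 1 was lower with no low-count filter. The other counts of 0 given above for the CDK and cyclin, CDK inhibitor, nuclear RNA, G2 and mitosis, unfolded protein, integrated stress and lysosome lists were also 0 at an unadjusted edgeR p under 0.05 and by DESeq2. In other fits some of these were above 0. Lysosome genes called higher numbered 8 with limma, and 1 and 6 in the blocked fits of all groups and of the 6 libraries. Integrated stress genes called higher numbered 1 and 2 in those blocked fits and 1 with no low-count filter. In the blocked fit of the 6 libraries 1 unfolded protein gene was higher and 3 genes of G2 and mitosis lower, and in the unblocked fit of the 6 libraries 1 gene of G2 and mitosis was lower. Of the tubulin genes, 1 was lower at an unadjusted edgeR p under 0.05 and none by DESeq2, and of the ribosome biogenesis genes 1 was higher at that p, 1 by DESeq2 and 4 with limma.

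**Figure D5:**
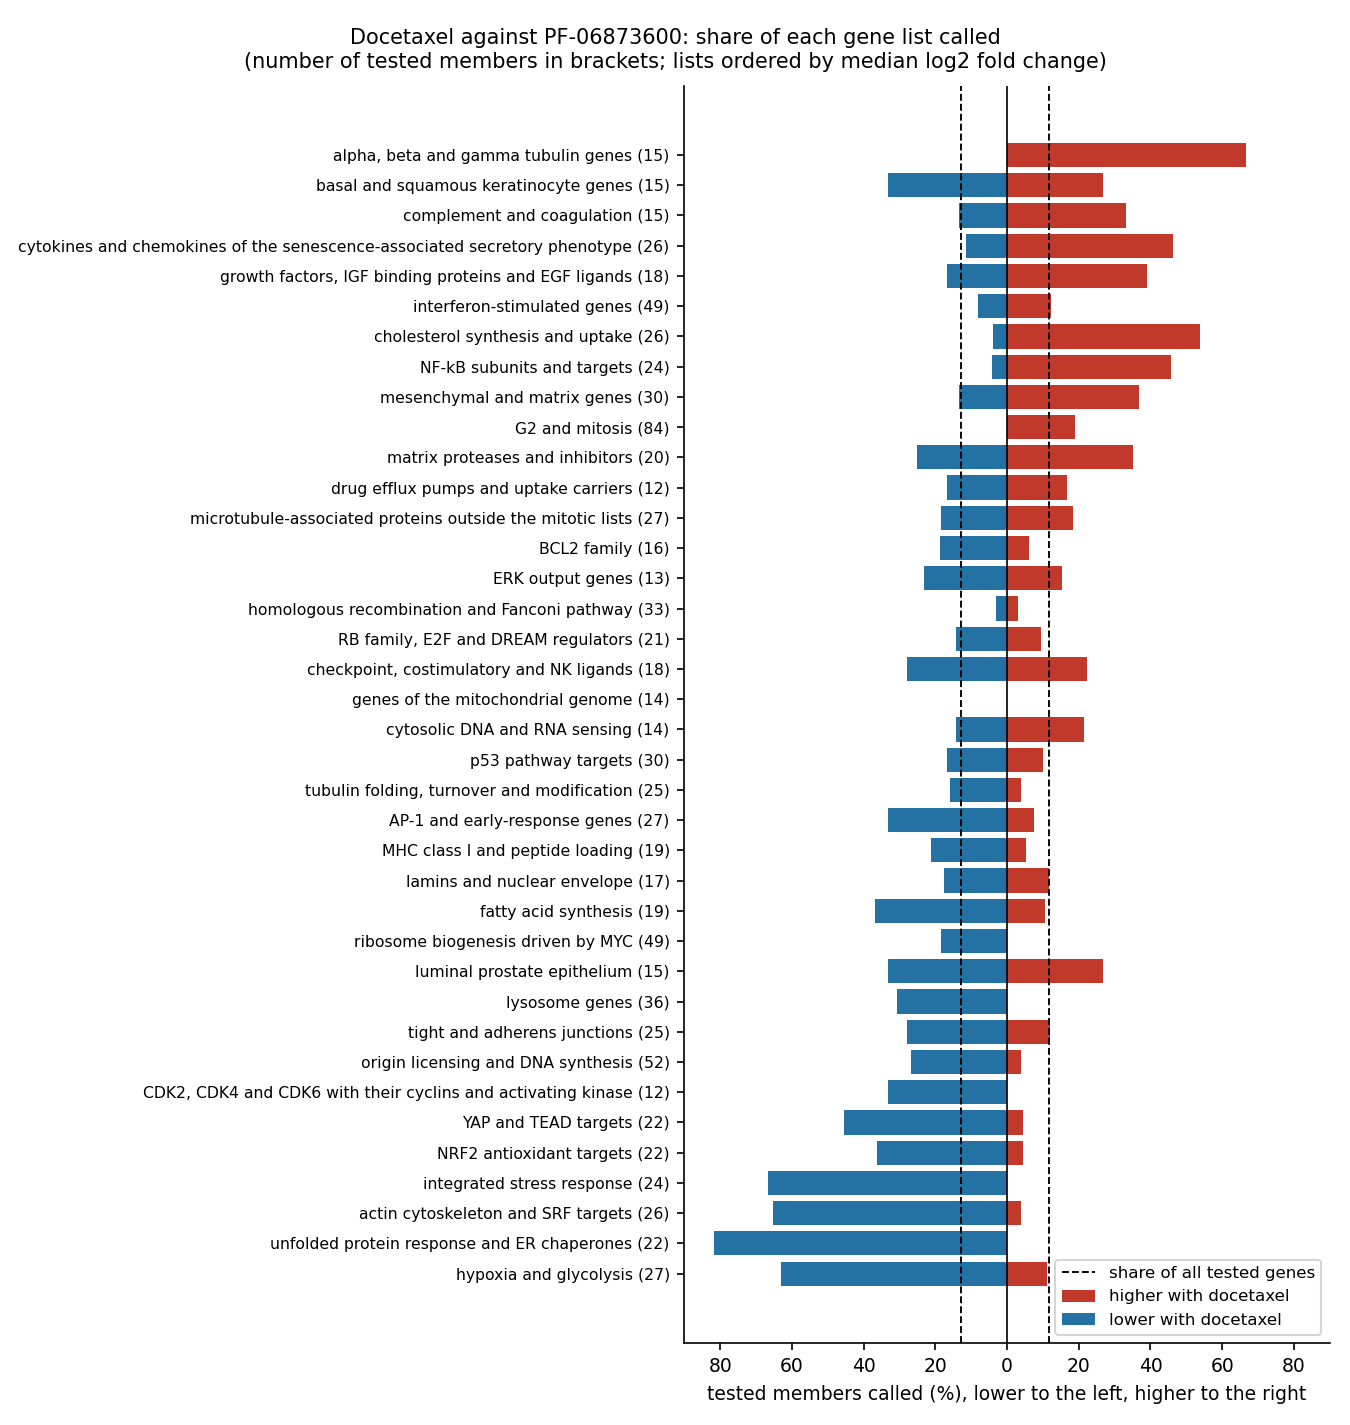
Share of the tested members of each gene list called higher (red, to the right) or lower (blue, to the left) with docetaxel than with PF-06873600, in percent, with the number tested in brackets and dashed lines at the shares of all tested genes (11.8% and 12.9%). Lists run from the highest median log2 fold change at the top to the lowest at the bottom: tubulins have 66.7% higher and 0% lower, and the unfolded protein response has 81.8% lower and 0% higher.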

How the data were processed

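The labels describe bulk RNA-seq of total RNA as 150-base paired reads. Per the submitters' processing notes, fastp, STAR, featureCounts and DESeq2 and the mm10 build were used; versions, strand settings and the treatment of multi-mapped reads are not given in the sources used here, so reads of overlapping antisense genes cannot be told apart. The authors deposited raw counts per gene (55487 genes), the unit tested here, and a table of TPM values for 24621 genes, used for levels per length and 1 alternative.

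Counts of all 24 libraries were fitted by treatment group with edgeR 4.0.16 in R 4.3.3 (filterByExpr with a minimum count of 10 and total of 15, TMM factors, quasi-likelihood test, 16 residual degrees of freedom). Contrasts were docetaxel minus PF-06873600, and each drug minus DMSO, which share the DMSO libraries and are given side by side only. P-values were adjusted by Benjamini-Hochberg over 15527 genes, and the threshold was 0.05. On simulated counts for 11770 genes of docetaxel against PF-06873600, 64% of 1.5-fold, 92% of 2-fold and 100% of 4-fold rises were recovered, and 3.49% of 172 calls were false. Only genes of at least 1 CPM with PF-06873600 were simulated, with libraries drawn independently. The rates therefore do not cover lower genes or the pattern of library 2. The genes at least 2-fold higher with docetaxel had a median of 0.235 CPM with PF-06873600. DESeq2 1.42.0 and limma 3.58.1 (on log2(TPM + 1)) were alternatives among 18 settings.

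Deviations from group means correlated at 0.186, 0.424 and 0.186 between same-numbered docetaxel and PF-06873600 libraries, each over 0.1. The numbers come from the sample titles, and the labels do not pair libraries. The main fit therefore has no block, and counts from it ignore any pairing. Fits with the number as a block are given as alternatives. Different numbers correlated at -0.322 to 0.207: libraries 1 and 3 of the 2 drugs correlated as strongly with each other (0.207 and 0.169) as with their own number, so the pattern sets library 2 apart. Within a group, pairs of libraries differed by a chi-square of 4.68 to 21.1 per degree of freedom, above sampling noise. No pair was thus a single library read again, and each was counted as 1 sample. This does not tell whether the libraries came from separate cultures.

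The genes and the 44 gene lists were chosen with earlier results of these data known. Genes named are the 10 largest called changes each way at 10 CPM or more in a drug group (libraries not overlapping, at least 5 counts in the lower group, no predicted names), up to 4 called members per list at 5 CPM or more, and preset genes of interest. Other list members (Tubg1, Tubg2, Epcam, Krt18, Cdh1, Tmprss2, Prom1, Creld2 and cell-type markers) were named after their values were seen. Some genes that the rule selects are not reported here.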

Additional observations from a re-analysis of the deposited data

How the results depend on the processing

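Over 18 alternatives no called gene among the 181 that the naming rule selects changed direction, and 132 of the 181 changed call under at least 1 alternative. Over their 3257 values, 349 no longer passed the threshold and 40 newly passed it. Of the genes named after their values were seen, 11 besides Tubg2 were tested and followed through the alternatives. Over their 183 values 11 no longer passed, 3 newly passed and 0 reversed. Requiring a change of more than 1.5-fold left 462 calls, 397 higher and 65 lower, of which 394 and 43 were at least 2-fold. With total counts as the only scaling 2810 genes were higher and 1019 lower. A filter of 1 CPM in 3 libraries left 549 genes at least 2-fold higher. Limma on log2(TPM + 1) gave 788 genes lower, and 354 and 27 at least 2-fold higher and lower; the log2(TPM + 1) scale understates changes of low genes. With the replicate block in the 6 libraries 6301 genes were called, 3296 of them higher, and the block ended no call counted above in the fit of all groups (3844 of 3844 shared). Leaving out 1 library gave 2504 to 3887 calls, 1201 to 1840 higher and 1233 to 2047 lower, with 702 to 1111 at least 2-fold higher and 60 to 81 at least 2-fold lower; without docetaxel library 3 the number lower was 1308. Of 1584 list counts, 351 moved by more than 1.5 times. Depth limits low genes: 483 of the 985 genes at least 2-fold higher had under 1 CPM with docetaxel. The cause of these shifts was not tested.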

Other observations

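Genes known from the 2-cell stage of the mouse embryo, such as the Zscan4 cluster, summed to more CPM with docetaxel, at low level. The list of 40 was chosen after values were seen and gets no test: 39 were in the count table, 20 passed the low-count filter and 19 did not. Their counts summed to 21.9, 34.5 and 25.2 CPM in docetaxel libraries, 5.12, 4.14 and 6.01 CPM in PF-06873600 libraries, and 0.611, 1.28 and 0.638 CPM in DMSO libraries. These sums rest on 1681, 897 and 690 counts with docetaxel, 131, 103 and 159 counts with PF-06873600 and 14, 31 and 16 counts with DMSO. For 28 of the 39 genes every docetaxel library exceeded every PF-06873600 library in CPM, against 20.5% of tested genes. With 19 of the 39 not tested and the list chosen after values were seen, this count is a description only. Many are near-identical copies among which reads may be shared, and genes under 1 CPM as a whole had a median log2 fold change of 0.65.

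By gene type, 17.0% of 452 lincRNA genes and 10.8% of 557 antisense genes were called higher with docetaxel and 2.65% and 1.08% lower, with medians of 0.50 and 0.44, against 12.4% higher and 15.4% lower of 12593 protein-coding genes (median -0.02). Genes under 1 CPM of any type had 22.1% higher and 0.729% lower, in part through the filter. Gene type was not separated from expression level. By chromosome, 16.1% of 1158 genes on chromosome 7 were called higher and 6.99% lower, and 7.5% of 440 genes on chromosome X were called higher and 15.5% lower. Chromosomes 6, 12 and 8 were close to chromosome 7, with 15.9%, 15.7% and 14.6% higher and 9.83%, 8.94% and 8.34% lower. Chromosome 19 had 17.3% lower, more than X. The chromosomes named were chosen by their shares, and chromosome was not separated from expression level. Of all tested genes, 11.8% were called higher and 12.9% lower. On chromosome 2, 25 of 1121 genes (2.23%) were called at least 2-fold higher, against 4.77% to 9.45% on each other chromosome.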
